A study of Homo sapiens with 6 samples.

Results

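Interferon response and class I antigen presentation genes were examined in liver metastases grown from SW480, a long-used cell line of human colorectal cancer. The set was a fixed list of 51 gene symbols, chosen by pathway, out of 58884 gene identifiers in the count matrix. Every symbol matched a single row, and 37 genes formed the interferon side and 14 the class I side. There were 3 libraries of sgITPR3 cells, which carried a CRISPR guide against ITPR3, and 3 of sgCtrl cells, which carried a control guide. ITPR3 encodes the type 3 inositol trisphosphate receptor, a calcium channel of the endoplasmic reticulum. Both groups were injected into the portal blood of NSG mice, a strain that lacks mature T, B and natural killer cells and keeps myeloid cells, and were recovered from digested livers after depletion of mouse cells. The labels report loss of the protein by Western blot. They do not say whether the guide-bearing cells were a clone or a pool, and they tie no library to an animal, so p-values measure only how far these libraries spread. RNA was read as tags at the 3' ends of polyadenylated transcripts.

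Interferons bind surface receptors (IFNAR1 with IFNAR2, or IFNGR1 with IFNGR2) and activate STAT and IRF transcription factors, which switch on antiviral effector genes through the interferon-stimulated response element (ISRE) and the gamma-activated sequence (GAS) in their promoters. Tumour cells can also start the response themselves, when sensors such as IFIH1 (MDA5) and CGAS detect nucleic acids and signal through MAVS or STING1 and IRF3. Class I presentation shares many of these controls. Peptides cut by the proteasome are carried into the endoplasmic reticulum by TAP1 and TAP2, trimmed by ERAP1 and ERAP2, and loaded with the help of TAPBP (tapasin) onto heavy chains paired with B2M.

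Promoter windows show what the genes share beyond their pathway. RefSeq windows on GRCh38.p14, from 250 bases before to 50 after each start, were found for 39 of the 51 genes. The core of an ISRE (GAAA, then 2 bases of any kind, then GAAA) was searched on both strands and stood in the windows of 25 of these 39 genes, against 4.38% of 27305 genes with a window. The GAS letters TTCNNNGAA were found in 12 of the 39, against 9.38% of all genes, and the kappa B letters (GGGA, any base, T, 2 bases of any kind, CC) in 8, against 6.15%. Matches of the ISRE and GAS letters overlap each other in IFI27, IFITM1, MX1 and BST2. Of the genes with a window, 5 of 8 that rose in sgITPR3 held the ISRE letters, as did 4 of 4 that fell and 12 of 23 that did not pass the test.

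The 250 bases before the start are printed for 2 genes that rose (IFI6 and DDX60), for IFITM3, which did not pass, and for 3 that fell (TAPBP, TAP1 and TAP2), because all 6 carry the ISRE letters whatever their change. Sequences run 5' to 3' on the gene's own strand, each on the minus strand of the chromosome. Capitals mark ISRE matches and, in TAP1, also the kappa B match that begins 72 bases before the start. The windows are chr1:27672193-27672442 for IFI6, chr4:168318753-168319002 for DDX60, chr11:320861-321110 for IFITM3, chr6:33314079-33314328 for TAPBP, chr6:32853705-32853954 for TAP1 and chr6:32838740-32838989 for TAP2.
IFI6: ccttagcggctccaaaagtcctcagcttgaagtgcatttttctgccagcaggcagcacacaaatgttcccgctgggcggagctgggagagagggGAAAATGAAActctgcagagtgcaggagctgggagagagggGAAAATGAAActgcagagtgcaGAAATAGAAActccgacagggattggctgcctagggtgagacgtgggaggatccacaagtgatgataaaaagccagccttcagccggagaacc
DDX60: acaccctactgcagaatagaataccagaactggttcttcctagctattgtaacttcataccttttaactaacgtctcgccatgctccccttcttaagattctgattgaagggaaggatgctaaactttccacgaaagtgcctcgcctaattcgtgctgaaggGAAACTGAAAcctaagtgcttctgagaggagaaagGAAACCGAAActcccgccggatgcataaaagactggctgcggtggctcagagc
IFITM3: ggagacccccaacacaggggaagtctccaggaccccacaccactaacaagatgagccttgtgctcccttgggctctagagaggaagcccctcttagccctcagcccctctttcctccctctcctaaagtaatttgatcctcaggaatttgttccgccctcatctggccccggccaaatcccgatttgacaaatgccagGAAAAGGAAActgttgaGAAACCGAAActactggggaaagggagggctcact
TAPBP: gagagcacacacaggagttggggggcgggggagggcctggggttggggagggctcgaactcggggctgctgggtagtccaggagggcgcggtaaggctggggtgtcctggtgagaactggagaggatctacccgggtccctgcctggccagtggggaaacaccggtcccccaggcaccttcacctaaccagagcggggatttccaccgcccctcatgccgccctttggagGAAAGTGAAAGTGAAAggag
TAP1: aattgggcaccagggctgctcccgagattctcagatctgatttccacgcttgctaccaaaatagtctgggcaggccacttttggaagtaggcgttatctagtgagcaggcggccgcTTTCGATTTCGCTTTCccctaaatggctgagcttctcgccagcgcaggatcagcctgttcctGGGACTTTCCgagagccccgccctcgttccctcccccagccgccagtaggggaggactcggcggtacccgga
TAP2: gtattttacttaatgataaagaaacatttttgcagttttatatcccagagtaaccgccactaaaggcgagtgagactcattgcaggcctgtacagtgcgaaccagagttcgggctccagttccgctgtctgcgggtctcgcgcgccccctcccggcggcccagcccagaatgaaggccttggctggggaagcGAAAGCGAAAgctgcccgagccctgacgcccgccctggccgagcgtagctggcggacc
IFI6 has 3 ISRE matches, which begin 156, 115 and 93 bases before the start. DDX60 and IFITM3 have 2 each. In TAPBP and TAP1 a pair of matches overlaps, on the gene's own strand in TAPBP and on the opposite strand in TAP1. A match describes the letters and is not a measured binding site.

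Libraries held 19140055 to 23943797 counts in sgITPR3 and 19255242 to 20049117 in sgCtrl. Levels are in CPM, the count scaled by the library's TMM-adjusted size, with mean ± SD over n = 3 libraries a group, and fold changes are sgITPR3 over sgCtrl. ITPR3 itself was at 39.3, 41.0 and 46.2 CPM in sgITPR3, against 107, 93.8 and 94.0 CPM in sgCtrl. It lay lower in every sgITPR3 library, although a 3' tag may lie outside the edited stretch. Of 15804 genes tested with edgeR's quasi-likelihood test, 11.6% were higher and 11.9% lower at an adjusted p under 0.05, and in 39.3% the libraries of the groups did not overlap. Of 5 colorectal epithelial markers (KRT8, KRT18, KRT19, EPCAM and CDX2) all 5 were measured, and they summed to 1963 to 2022 CPM in sgITPR3 and 2385 to 2769 CPM in sgCtrl. They did not move alike. KRT8, KRT19 and EPCAM fell (log2 fold changes -0.39, -0.82 and -0.32), CDX2 rose (0.34, edgeR adjusted p = 0.0115) and KRT18 did not pass (-0.20). Hepatocyte marker genes (8 genes) summed to 166 to 320 CPM in sgITPR3 and 69.6 to 268 CPM in sgCtrl, where replicate 2 was the high library. Most of the sum was ALB in the sgITPR3 libraries and in sgCtrl replicate 2. In sgCtrl replicates 1 and 3 SERPINA1 (45.2 and 38.8 CPM) lay above ALB (33.7 and 21.5 CPM). Of the 8 hepatocyte genes, 6 were tested, and APOA1 rose (log2 fold change 1.06, edgeR adjusted p = 0.0414), SERPINA1 fell (-1.64, edgeR adjusted p = 1.51e-07), and ALB, APOB, TTR and FGB, with log2 fold changes from 1.01 to 1.15, did not pass. Endothelial and stromal markers (8 genes) summed to 20.6 to 23.6 CPM in sgITPR3 and 18.6 to 20.1 CPM in sgCtrl. Of these 8, 2 were tested. COL1A1 rose (log2 fold change 0.48, edgeR adjusted p = 0.0331) and ACTA2 did not pass (0.05). The part of hepatocytes, endothelium and stroma in the results was not tested, apart from a fit with ALB as a covariate. In these bulk samples, fewer cells of a type and less RNA per cell cannot be told apart.

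Of the 51 genes, 45 passed the low-count filter, and 8 of these rose, 5 fell and 32 did not pass the test. The rises were 17.8% and the falls 11.1% of the genes tested, against 11.6% and 11.9% of all genes, of which 23.5% were called in either direction. The libraries of the groups did not overlap in 16 of the 45 genes, a share no higher than the 39.3% over all genes. Calls on the interferon side were mostly rises, and on the class I side mostly falls. Among 32 tested interferon genes 7 rose and 1 fell, with a median log2 fold change of 0.04. Among 13 tested class I genes 1 rose and 4 fell, with a median of -0.14. The median over all genes was 0.00086. The difference between the sides was not tested, since the genes were listed with earlier results of these data known.

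**Figure D1:**
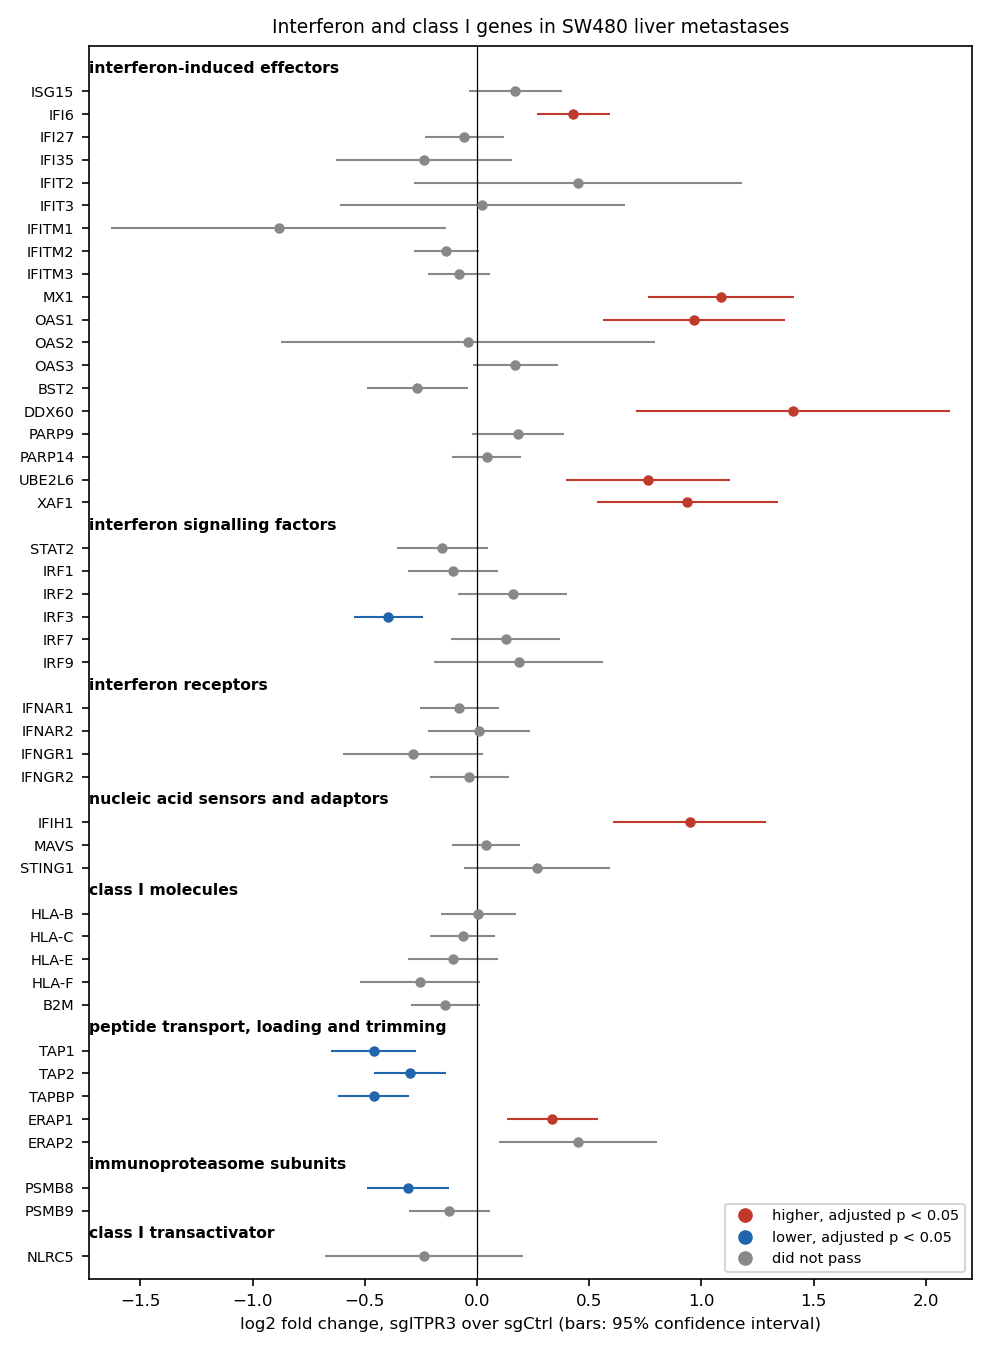
Log2 fold change of the 45 tested genes, sgITPR3 over sgCtrl, by role, with 95% confidence intervals from the edgeR fit. Rises among the effectors reach 1.41 for DDX60, while the peptide transport and loading genes TAP1, TAP2 and TAPBP lie between -0.46 and -0.30.

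Interferon-induced effectors gave most of the rises. Of 23 genes 19 were tested, and 6 rose, 0 fell and 13 did not pass, which is 31.6% higher, against 11.6% of all genes. The difference in share was not tested. MX1, a dynamin-like GTPase that traps viral particles (chromosome 21, 41420304 to 41459214), was at 14.0, 11.3 and 11.7 CPM in sgITPR3, against 5.69, 6.75 and 4.96 CPM in sgCtrl. Every sgITPR3 library lay above every sgCtrl library, a 2.13-fold rise (edgeR adjusted p = 1.31e-04, log2 fold change 1.09 with SE 0.151). OAS1 makes the second messenger 2-5A that activates RNase L, and lies beside OAS3 and OAS2 on chromosome 12 (112906777 to 112933222). It was at 5.39, 5.62 and 4.99 CPM in sgITPR3, against 2.47, 2.83 and 2.88 CPM in sgCtrl (log2 fold change 0.97 with SE 0.190, edgeR adjusted p = 0.00206). No other OAS gene passed. OAS3 was at 29.3 ± 2.29 CPM in sgITPR3 and 26.1 ± 0.471 CPM in sgCtrl and did not pass (log2 fold change 0.17, edgeR adjusted p = 0.182), though its libraries did not overlap. OAS2 stayed near 1 CPM (0.939 ± 0.230 CPM in sgITPR3 and 0.960 ± 0.324 CPM in sgCtrl), and its 95% interval, -0.87 to 0.79, is too wide to place it. The related OASL had 3 to 6 counts in every library and was not tested.

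DDX60, a helicase-like antiviral factor, had the largest log2 fold change of the 45 tested genes. It had 37, 51 and 37 counts in sgITPR3, against 14, 15 and 11 counts in sgCtrl (log2 fold change 1.41 with SE 0.326, edgeR adjusted p = 0.00627). XAF1, a pro-apoptotic zinc finger protein, was at 8.24, 8.04 and 5.61 CPM in sgITPR3, against 3.49, 4.07 and 3.89 CPM in sgCtrl (log2 fold change 0.94 with SE 0.188, edgeR adjusted p = 0.00240). UBE2L6, the conjugating enzyme that attaches ISG15 to proteins, was at 19.6, 19.7 and 12.6 CPM in sgITPR3, against 12.1, 10.1 and 8.53 CPM in sgCtrl. In both XAF1 and UBE2L6 the lowest sgITPR3 library was replicate 3, which still lay above the sgCtrl range. The UBE2L6 log2 fold change was 0.76 (SE 0.171, edgeR adjusted p = 0.00517). IFI6, a small membrane protein that protects mitochondria from death signals, was at 59.6, 56.2 and 54.7 CPM in sgITPR3, against 41.5, 40.3 and 44.8 CPM in sgCtrl (log2 fold change 0.43 with SE 0.076, edgeR adjusted p = 9.45e-04). ALB, the hepatocyte albumin gene, was at 231, 152 and 111 CPM in sgITPR3 and 33.7, 169 and 21.5 CPM in sgCtrl. With ALB as a covariate 3 of these calls ended, those of DDX60 (edgeR adjusted p = 0.0563), XAF1 (0.0512) and UBE2L6 (0.0807).

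**Figure D2:**
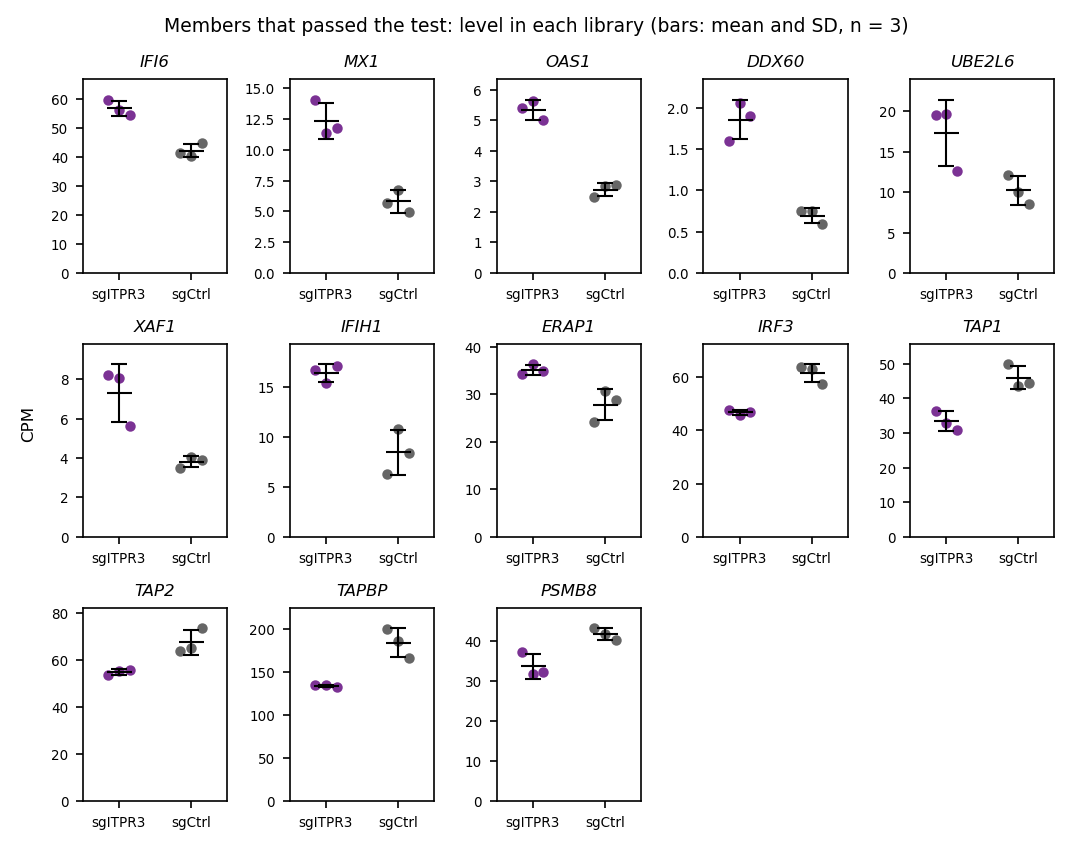
CPM of each library for the 13 genes that passed the test (points, replicates 1 to 3 from left to right) with mean and SD, sgITPR3 left of sgCtrl. In all 13 panels the libraries of the groups do not overlap, and the gap is narrow for UBE2L6, where the lowest sgITPR3 library is at 12.6 CPM and the highest sgCtrl library at 12.1 CPM.

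Many classical effectors were not among the rises. ISG15, the ubiquitin-like protein that UBE2L6 conjugates, was at 33.2, 32.8 and 29.9 CPM in sgITPR3, against 31.8, 28.1 and 25.3 CPM in sgCtrl, and the groups overlapped (log2 fold change 0.17, edgeR adjusted p = 0.223). The membrane proteins IFITM2 and IFITM3, which block viral entry, were at 579 ± 32.2 and 1302 ± 36.9 CPM in sgITPR3 and at 637 ± 27.2 and 1376 ± 66.7 CPM in sgCtrl. Neither passed (log2 fold changes -0.14 and -0.08), and reads shared between these close paralogs would make both counts uncertain. IFITM1 was set by a single library. It was at 5.82, 6.47 and 5.56 CPM in sgITPR3, against 20.4, 7.25 and 5.49 CPM in sgCtrl, where replicate 1 stood far above the others (log2 fold change -0.88, edgeR adjusted p = 0.0811). Without that replicate IFITM1 had a log2 fold change of -0.10 (edgeR adjusted p = 0.760), whereas without sgCtrl replicates 2 or 3 it passed (edgeR adjusted p = 0.0137 and 0.0140). BST2 (tetherin), which holds budding virus on the cell surface, was at 44.9, 40.5 and 48.2 CPM in sgITPR3, against 56.8, 44.3 and 59.7 CPM in sgCtrl, and passed as lower when sgCtrl replicate 2 was left out (edgeR adjusted p = 0.0811 with all libraries and 0.00327 without it).

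The other effectors tested were IFI27, IFI35, IFIT2, IFIT3, PARP9 and PARP14, with log2 fold changes from -0.24 (IFI35) to 0.45 (IFIT2), and none passed. IFIT1, which binds foreign RNA caps, was left out by the filter, which asks for about 0.507 CPM in 3 libraries. It had 18, 9 and 13 counts in sgITPR3, against 2, 2 and 0 counts in sgCtrl, with no overlap, and it passed without the filter (edgeR adjusted p = 0.00452) and in DESeq2 (adjusted p = 0.0246). The fit without the filter also called IFITM1, set by a single library, as lower (edgeR adjusted p = 7.24e-07). IFI44 and IFI44L had 0 counts in all 6 libraries, which allows up to 0.129 CPM, 0.121 CPM and 0.154 CPM in sgITPR3 replicates 1 to 3 (3 counts each, counting error only) and 0.149 to 0.161 CPM in sgCtrl.

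Among the sensors, IFIH1, which detects double-stranded RNA (chromosome 2, 162267079 to 162318703), rose. It was at 16.7, 15.4 and 17.1 CPM in sgITPR3, against 6.28, 10.8 and 8.37 CPM in sgCtrl, and the lowest sgITPR3 library lay above the highest sgCtrl library (log2 fold change 0.95 with SE 0.159, edgeR adjusted p = 6.44e-04). Its adaptor gene MAVS was at 106 ± 7.12 CPM in sgITPR3 and 103 ± 4.02 CPM in sgCtrl (log2 fold change 0.04, 95% interval -0.11 to 0.19). STING1, the adaptor for cytosolic DNA, did not pass either (log2 fold change 0.27, edgeR adjusted p = 0.227). CGAS, the DNA sensor upstream of STING1, had 5, 2 and 6 counts in sgITPR3 and 2, 4 and 1 counts in sgCtrl, which is too few to compare.

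None of the 4 receptor genes passed. Their log2 fold changes were -0.08 for IFNAR1, 0.01 for IFNAR2, -0.28 for IFNGR1 and -0.03 for IFNGR2, and the 95% intervals of IFNAR1 (-0.25 to 0.10) and IFNGR2 (-0.21 to 0.14) leave little room for a large change. Of 6 signalling factors, IRF3 fell and 5 did not pass. IRF3, which MAVS and STING1 activate (chromosome 19, 49659569 to 49665875), was at 47.6, 45.5 and 46.7 CPM in sgITPR3, against 63.6, 62.8 and 57.4 CPM in sgCtrl (log2 fold change -0.39 with SE 0.073, edgeR adjusted p = 0.00131). BCL2L12 overlaps the IRF3 gene on the opposite strand and moved alike, at 47.0 ± 2.28 CPM in sgITPR3 and 62.1 ± 2.67 CPM in sgCtrl (log2 fold change -0.40, edgeR adjusted p = 0.00122). The sources used here do not give the strand setting of the counting, and reads of overlapping genes cannot be told apart without it. STAT2 and IRF9, parts of the factor that binds the ISRE, had log2 fold changes of -0.15 and 0.19, and IRF1, IRF2 and IRF7 of -0.11, 0.16 and 0.13. IRF2 passed as higher without sgCtrl replicate 2 (edgeR adjusted p = 0.0381).

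On the class I side the heavy chains and B2M did not pass. HLA-B was at 222, 225 and 192 CPM in sgITPR3, against 219, 221 and 197 CPM in sgCtrl, so the groups overlapped fully (log2 fold change 0.01, 95% interval -0.16 to 0.17). HLA-C was at 335 ± 17.1 CPM in sgITPR3 and 350 ± 15.1 CPM in sgCtrl (log2 fold change -0.06). The annotated spans of HLA-B and HLA-C overlap and class I genes are close copies, so reads may be split between them. The non-classical genes HLA-E, a ligand of natural killer cell receptors, and HLA-F had log2 fold changes of -0.11 and -0.25. HLA-F passed as lower without sgITPR3 replicate 1 (edgeR adjusted p = 0.0375). B2M was at 647, 626 and 586 CPM in sgITPR3, against 725, 629 and 695 CPM in sgCtrl, with overlap between the groups (log2 fold change -0.14, edgeR adjusted p = 0.177). It passed as lower without sgCtrl replicate 2 (edgeR adjusted p = 0.0477).

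Most falls lay in peptide transport and loading. Of 5 genes, 3 fell, 1 rose and 1 did not pass, where 11.9% of all genes were lower and 11.6% higher. TAPBP, the bridge between the peptide transporter and the empty class I molecule (chromosome 6, 33299694 to 33314387), was at 135, 135 and 132 CPM in sgITPR3, against 200, 186 and 167 CPM in sgCtrl (log2 fold change -0.46 with SE 0.074, edgeR adjusted p = 4.42e-04). TAP1 (chromosome 6, 32845209 to 32853978) was at 36.4, 33.0 and 30.7 CPM in sgITPR3, against 49.8, 43.7 and 44.5 CPM in sgCtrl (log2 fold change -0.46 with SE 0.088, edgeR adjusted p = 0.00173). Both genes were 1.38-fold lower, with no overlap between groups. TAP2, the other subunit of the transporter (chromosome 6, 32821833 to 32838780), was at 53.4, 55.3 and 55.8 CPM in sgITPR3, against 63.7, 65.0 and 73.4 CPM in sgCtrl (log2 fold change -0.30 with SE 0.075, edgeR adjusted p = 0.0102). The TAP2 call ended without sgCtrl replicate 3 (edgeR adjusted p = 0.0507), without sgITPR3 replicate 1 (0.0510) and with ALB as a covariate (0.142).

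The rise among these genes was in a trimming peptidase of the endoplasmic reticulum. ERAP1 (chromosome 5, 96760810 to 96808100) was at 34.4, 36.4 and 34.9 CPM in sgITPR3, against 24.2, 30.6 and 28.8 CPM in sgCtrl (log2 fold change 0.34 with SE 0.095, edgeR adjusted p = 0.0192). Its neighbour ERAP2 was at 9.44, 8.61 and 8.18 CPM in sgITPR3, against 5.10, 7.79 and 6.29 CPM in sgCtrl, also with no overlap, and did not pass (log2 fold change 0.45, edgeR adjusted p = 0.0628). CAST overlaps ERAP1 on the opposite strand and did not pass, at 505 ± 47.8 CPM in sgITPR3 and 571 ± 50.9 CPM in sgCtrl (log2 fold change -0.18). The ERAP1 call ended without sgCtrl replicate 1 (edgeR adjusted p = 0.0824), without sgITPR3 replicate 2 (0.0856) and with ALB as a covariate (0.199), and ERAP2 passed without sgCtrl replicate 2 (0.0125).

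Of the immunoproteasome genes, which encode the interferon-induced catalytic subunits, PSMB8 fell. It was at 37.2, 31.6 and 32.2 CPM in sgITPR3, against 43.1, 41.8 and 40.1 CPM in sgCtrl (log2 fold change -0.31 with SE 0.086, edgeR adjusted p = 0.0180). This call ended without sgCtrl replicate 1 (edgeR adjusted p = 0.0520), without sgITPR3 replicate 2 (0.0982) and without sgITPR3 replicate 3 (0.0664). PSMB9, on the opposite strand, has an annotated span (chromosome 6, 32844136 to 32859585) that holds all of TAP1 and overlaps part of PSMB8. It was at 32.5 ± 0.677 CPM in sgITPR3 and 35.4 ± 2.80 CPM in sgCtrl (log2 fold change -0.12, edgeR adjusted p = 0.318). PSMB10 had at most 4 counts in a library and was not tested. NLRC5, the transactivator of class I genes, was at 3.21 ± 0.191 CPM in sgITPR3 and 3.79 ± 0.573 CPM in sgCtrl (log2 fold change -0.24, 95% interval -0.68 to 0.21).

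Chromosome 6 holds 11 of the 51 genes, and all 4 class I genes that fell are among them. Of the 10 tested, 4 fell, 0 rose and 6 did not pass. The class I genes on this chromosome had a median log2 fold change of -0.25 over 9 tested (4 fell, 0 rose). Those elsewhere (B2M, ERAP1, ERAP2 and NLRC5) had a median of 0.10 over 4 tested (0 fell, 1 rose). Measured from the start of the targeted gene ITPR3, TAPBP starts at -0.321 Mb, TAP1 at -0.775 Mb, PSMB9 at -0.776 Mb, PSMB8 at -0.780 Mb and TAP2 at -0.799 Mb. HLA-B (-2.35 Mb), HLA-C (-2.35 Mb), HLA-E (-3.13 Mb) and HLA-F (-3.90 Mb) lie farther off, and none of these passed. The interferon genes on this chromosome, CGAS and IFNGR1, lie beyond ITPR3 and did not give a call.

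Genes around them were also lower. Of 120 other tested genes starting from 29 to 34 Mb of chromosome 6, ITPR3 left out, 22.5% were lower and 4.17% higher, and their median log2 fold change was -0.17. With the 9 class I genes counted in, 24.0% of 129 were lower and 3.88% higher. Called in either direction were 26.7% of the genes of this stretch without the class I genes, 27.9% with them and 23.7% of genes on the other chromosomes. Over the part of the chromosome to 60 Mb, 16.6% of 470 tested genes were lower and 5.11% higher, and over the whole chromosome 13.9% of 791 were lower and 6.83% higher. On the other chromosomes 11.8% were lower and 11.9% higher, with a median of 0.0056. Thus 4 of 9 class I genes on chromosome 6 were lower (44.4%) where 22.5% of their neighbours were, and position and pathway cannot be told apart for them.

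**Figure D3:**
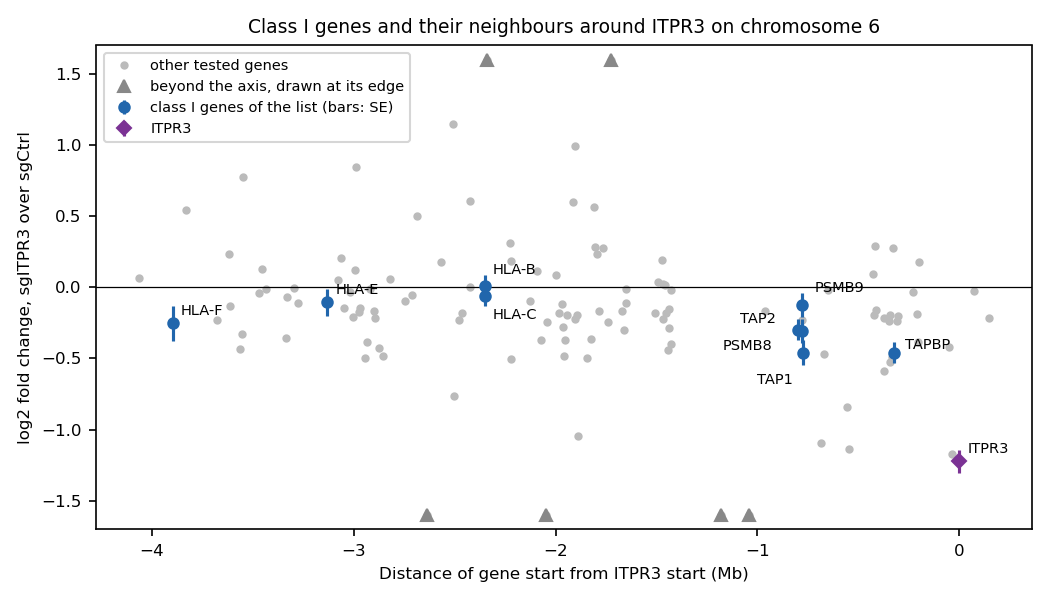
Log2 fold change (sgITPR3 over sgCtrl) against the distance of each gene's start from that of ITPR3, in Mb, for tested genes of chromosome 6 from 29 to 34 Mb. The 9 class I genes are blue with SE, 120 other genes are grey, and 6 of these with log2 fold changes beyond 1.6 in size are drawn at the edge of the axis. TAPBP, TAP1, TAP2, PSMB8 and PSMB9 lie within 0.8 Mb of ITPR3, and of these PSMB9 (log2 fold change -0.12) did not pass. HLA-B has a log2 fold change near 0.

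Further genes of the pathways were called at shares near those of all genes. Of 51 further interferon pathway genes 41 were tested, and 5 rose, 6 fell and 30 did not pass, which is 12.2% higher and 14.6% lower, against 11.6% and 11.9% of all genes. EPSTI1, an interferon-induced gene of epithelium and stroma, had 61, 60 and 52 counts in sgITPR3, against 14, 20 and 16 counts in sgCtrl (log2 fold change 1.56, edgeR adjusted p = 0.00131). SAMD9, an antiviral growth regulator, was at 6.47 ± 0.977 CPM in sgITPR3 and 3.17 ± 0.651 CPM in sgCtrl, and SP110, a nuclear body protein, at 19.4 ± 0.517 CPM in sgITPR3 and 11.1 ± 1.51 CPM in sgCtrl. The log2 fold changes were 1.02 for SAMD9 and 0.81 for SP110. Among the falls were PML, the organiser of those nuclear bodies, at 28.0 ± 2.44 CPM in sgITPR3 and 41.2 ± 1.02 CPM in sgCtrl, and TBK1, the kinase that activates IRF3, at 19.3 ± 1.08 CPM in sgITPR3 and 27.2 ± 1.87 CPM in sgCtrl. SOCS3, a feedback inhibitor of JAK signalling, was at 21.7 ± 0.424 CPM in sgITPR3 and 27.7 ± 0.494 CPM in sgCtrl. The interferon genes IFNB1 and IFNL1 had 0 counts or, for IFNL1 in sgITPR3 replicates 1 and 2, 3 and 2 counts.

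Of 21 further class I pathway genes 20 were tested, and 2 rose, 3 fell and 15 did not pass, which is 10% higher and 15% lower, again near the 11.6% and 11.9% of all genes. TAPBPL, a tapasin relative that edits peptides and lies on chromosome 12, was at 23.0 ± 2.72 CPM in sgITPR3 and 32.6 ± 4.21 CPM in sgCtrl (log2 fold change -0.50, edgeR adjusted p = 0.00487). PSME1, a subunit of the proteasome activator PA28, was at 153 ± 6.29 CPM in sgITPR3 and 179 ± 13.8 CPM in sgCtrl. Ligands of the receptor NKG2D were called both ways. MICA, beside HLA-B, fell (16.5 ± 2.16 CPM in sgITPR3 and 23.3 ± 0.804 CPM in sgCtrl), and ULBP1 and ULBP3, on the long arm of the same chromosome, rose (log2 fold changes 0.77 and 0.24). The chaperones CALR and CANX did not pass (log2 fold changes 0.11 and 0.08).

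The largest falls in all these lists were in the class II genes CIITA and HLA-DRA. Of 6 listed and tested, 4 fell, 0 rose and 2 did not pass, which is 66.7% lower, against 11.9% of all genes. CIITA, the master switch of class II transcription (chromosome 16, 10866222 to 10943021), was at 0.733, 0.849 and 1.24 CPM in sgITPR3, against 3.97, 3.82 and 3.47 CPM in sgCtrl. It was 4.02-fold lower with no overlap (log2 fold change -2.01 with SE 0.274, edgeR adjusted p = 1.11e-04), whereas the related class I switch NLRC5 had a log2 fold change of -0.24. HLA-DRA, the class II alpha chain, was at 2.98, 3.15 and 3.65 CPM in sgITPR3, against 12.1, 12.6 and 10.3 CPM in sgCtrl (log2 fold change -1.84 with SE 0.158, edgeR adjusted p = 1.30e-06). The invariant chain CD74, on chromosome 5, was at 65.4, 67.5 and 41.4 CPM in sgITPR3, against 81.6, 80.7 and 75.1 CPM in sgCtrl (edgeR adjusted p = 0.0271). HLA-DMB fell too (log2 fold change -1.09, edgeR adjusted p = 0.0312). DESeq2 called 2 of the 6. The share depends on which class II genes are listed. Outside the list, HLA-DRB1 was lower (log2 fold change -1.66, edgeR adjusted p = 8.60e-06). HLA-DPB1 (-1.13, edgeR adjusted p = 0.0818) and HLA-DQB1 (-0.17, edgeR adjusted p = 0.299) did not pass. All the HLA class II genes named here lie near ITPR3 on chromosome 6. HLA-DRA starts at -1.18 Mb from it, HLA-DMB at -0.686 Mb, and the listed HLA-DMA and HLA-DPA1, which did not pass, at -0.672 and -0.556 Mb. Of 120 tested genes from 29 to 34 Mb, these class II genes included, 22.5% were lower. Position and pathway cannot be told apart for them, while CIITA and CD74 lie on other chromosomes. Immune cells also carry class II genes, and the part of such cells in these falls was not tested. PTPRC (CD45) had 7, 0 and 0 counts in sgITPR3 and 0 in each sgCtrl library, and TYROBP and CSF1R had at most 3 counts in any library. FCER1G had 0 counts in each sgITPR3 library, against 7, 5 and 2 counts in sgCtrl, too few to be tested. The groups did not overlap in FCER1G, as with the class II genes that fell, and overlapped in the other immune markers. The 9 immune markers summed to 12.1 to 17.0 CPM in sgITPR3 and 10.3 to 12.7 CPM in sgCtrl, most of it from ITGAM.

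**Figure D4:**
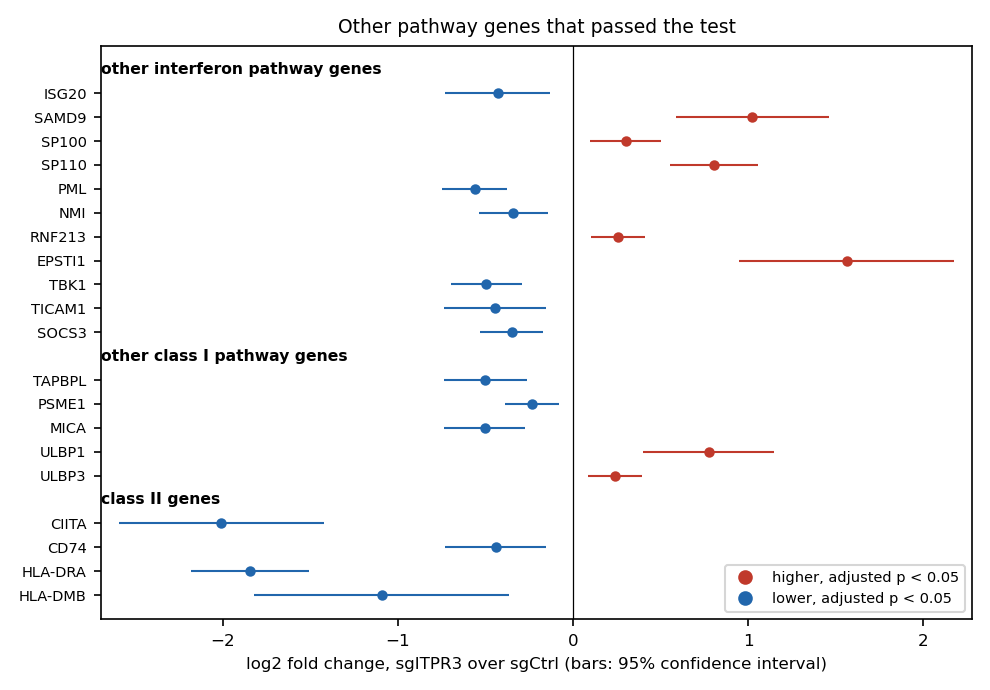
Log2 fold change (sgITPR3 over sgCtrl) with 95% confidence intervals for the genes of the further interferon, class I and class II lists that passed the test. CIITA and HLA-DRA, at -2.01 and -1.84, lie lowest, and EPSTI1, at 1.56, highest.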

How the data were processed

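RNA was measured in 6 libraries, 3 of sgITPR3 and 3 of sgCtrl, grouped by their labels. The values are whole gene counts as deposited by the authors. Per the submitters' processing notes, reads were aligned to GRCh38 with STAR 2.6.0a and counted with featureCounts 1.6.3. Those notes name DESeq2 as well. How strand, mouse reads and multiply aligned reads were handled, and with which annotation release, the sources used here do not give. Positions came from GENCODE 29 (58611 of 58884 identifiers matched).

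Counts were fitted with R 4.3.3 and edgeR 4.0.16 (filterByExpr with a minimum count of 10, TMM scaling, quasi-likelihood F test, no covariate), with Benjamini-Hochberg adjustment over all 15804 genes tested and a threshold of 0.05. The SE is the log2 fold change over the square root of F. The other settings tried were a block on replicate number, ALB as a covariate, scaling by RLE, a filter at 1 CPM in 3 libraries or none, a 2-fold minimum, leaving out each library, limma-voom (limma 3.58.1) and DESeq2 1.42.0. On simulated data, of 200 genes changed 1.5-fold among 15532, 54.0% were recovered and 7.69% of calls were false, and of 200 changed 2-fold among 15537, 76.5% were recovered and 8.38% of calls were false.

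The genes and lists were chosen with earlier results of these data known. All 51 are accounted for. Those that passed are given by library, and up to 6 passing genes of each further list, by smallest p, are named. IFNB1, IFNL1, CALR and CANX were named after their values were seen. Libraries of a group differed by more than sampling noise (chi-square per degree of freedom 6.07 to 11.4).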

Additional observations from a re-analysis of the deposited data

How the results depend on the processing

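Of the 13 genes that passed, 7 kept their call in all 13 alternatives run on single genes (MX1, OAS1, IFI6, IFIH1, IRF3, TAP1 and TAPBP). The interferon side had 7 higher genes, with 4 under the ALB covariate and 7 to 9 when a library was left out, and 1 lower gene, with 3 without a filter, 2 under the replicate block and 1 to 3 when a library was left out. The class I side had 1 higher gene, with 2 without a filter, 0 under the ALB covariate and 0 to 2 when a library was left out, and 4 lower genes, with 3 to 5 when a library was left out. Chromosome 6 genes of the list had 0 higher and 3 or 4 lower in the 13 alternatives run on them. The 2-fold minimum was applied to the counts over all genes only. Further interferon genes had 6 lower, with 3 under the ALB covariate, further class I genes 2 higher, with 1 under the ALB covariate and 1 to 2 when a library was left out, and class II genes 4 lower, with 2 by DESeq2. Over all genes 1835 were higher and 1882 lower, with 1000 and 982 under the ALB covariate, 681 and 274 with a 2-fold minimum, and 1136 to 2121 and 1197 to 2140 when a library was left out.

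Values that changed sign belonged to genes that did not pass. Under the ALB covariate the log2 fold change was -0.32 for IFIT3, 0.32 for OAS2, -0.011 for IRF2 and -0.091 for HLA-B, and by DESeq2 it was -0.0011 for HLA-B. When a library was left out, IFI27 lay from -0.13 to 0.0056, IFIT3 lay from -0.20 to 0.33, OAS2 from -0.23 to 0.26, IFNAR2 from -0.093 to 0.074 and HLA-B from -0.049 to 0.076. The cause was not tested. Same-numbered libraries of the groups deviated together by r = -0.050, 0.013 and 0.098, so the numbers are not taken to pair them. With the replicate block BST2 passed as lower (edgeR adjusted p = 0.0264). Genes under about 0.507 CPM could not be tested at this depth.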
